A study of Caenorhabditis elegans with 2 samples.

Results

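The regions described here are peaks of CEH-83, a homeobox protein of Caenorhabditis elegans, that lay in promoters of protein-coding genes and away from genes of small structural RNAs. A peak was taken when its summit lay from 1000 bp upstream to 200 bp downstream of the annotated start of a protein-coding gene (Ensembl, assembly WBcel235, the same sequence as ce11) and more than 200 bp from any tRNA, snoRNA or snRNA gene. On the authors' optimal IDR list 399 peaks met this rule and the other 859 did not, so these were 31.7% of the list (95% Clopper-Pearson interval 29.2 to 34.4). IDR, the irreproducible discovery rate, keeps regions whose ranks recur between replicates. The data were chromatin immunoprecipitation and sequencing (ChIP-seq) peak lists from mixed-stage embryos of strain OP727, obtained by egg bleaching, with males and females pooled and an age given as 1 hour. The strain has an unc-119(tm4063) mutation and the integrated array wgIs727, which supplies unc-119(+) and a CEH-83 fusion with TY1, EGFP and 3xFLAG. The fusion protein came from this added transgene, and the pull-down used an antibody to GFP per the sample descriptions, while the antibody label reads ceh-83. Chromatin was sonicated to 200 to 800 bp. There was 1 group of 2 biological replicates, with no untagged or untreated group among the samples analysed, so the lists do not tell binding of CEH-83 apart from other enrichment at the same places.

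Promoters are the stretches of DNA where RNA polymerase II and its regulators assemble. In this compact genome many neighbouring genes are transcribed away from each other out of 1 shared upstream stretch, called a divergent promoter here. Many worm transcripts have their first bases replaced by a spliced leader, so the annotated start of a gene is often not the place where transcription begins, and distances to it are distances to the annotation. Homeodomain proteins bind short A- and T-rich sites with a TAAT core, and open promoters of widely expressed worm genes are known to be recovered with many different factors in ChIP experiments.

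The 399 promoter peaks were classed by the starts around them. A divergent peak lay in the windows of genes on both strands whose starts point away from each other, a single peak in the window of 1 gene, and a tandem peak in the windows of several genes of 1 strand. There were 115 divergent peaks (28.8%, 24.4 to 33.5), 272 single peaks (68.2%, 63.4 to 72.7), 11 tandem peaks (2.76%) and 1 of another arrangement. Regions and genes are neither independent of each other nor replicates of a condition, so no test was run, and all intervals below are 95% Clopper-Pearson intervals that cover counting error over regions or genes only. The lists carry no read totals, and depth is therefore unknown.

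The highest peaks of each kind are shown as sequence, the summit base with 50 bases to either side, because they let the base composition at the summits be read directly. The 6 highest divergent and the 6 highest other peaks are given among those on chromosomes II, III, IV, V and X whose window overlaps no annotated exon. All are written along the plus strand of WBcel235 (RefSeq genome sequence). Capitals mark the words CGCGCA and GCGCAC, then TGCAAA or TTGCAA, and also CGCACA, read on either strand and often overlapping. These 5 words were picked after the data were seen, as those of the 2080 words of 6 letters whose share of peak windows exceeded by most that of promoter regions not on the IDR list (not called), weighted to the same G and C content. The divergent peaks were the following.
nmad-1/hach-1 (chrIII:5555068-5555168, signal 600): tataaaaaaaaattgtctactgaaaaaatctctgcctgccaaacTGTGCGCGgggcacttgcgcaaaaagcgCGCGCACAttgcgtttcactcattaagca
C16C10.4/rnf-121 (chrIII:4171155-4171255, signal 595): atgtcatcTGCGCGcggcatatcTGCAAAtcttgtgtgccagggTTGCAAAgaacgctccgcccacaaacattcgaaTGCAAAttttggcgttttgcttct
tasp-1/K01G5.10 (chrIII:10759189-10759289, signal 566): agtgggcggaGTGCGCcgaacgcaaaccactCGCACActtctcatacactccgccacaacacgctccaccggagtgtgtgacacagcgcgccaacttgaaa
rpl-15/K11H12.8 (chrIV:654872-654972, signal 563): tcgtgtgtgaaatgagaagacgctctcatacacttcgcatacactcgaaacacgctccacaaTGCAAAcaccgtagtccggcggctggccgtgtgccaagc
idhg-1/mlcd-1 (chrIII:4568680-4568780, signal 523): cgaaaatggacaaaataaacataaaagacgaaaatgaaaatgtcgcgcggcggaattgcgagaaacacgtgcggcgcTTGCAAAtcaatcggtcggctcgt
snx-13/snr-1 (chrIV:17087544-17087644, signal 489): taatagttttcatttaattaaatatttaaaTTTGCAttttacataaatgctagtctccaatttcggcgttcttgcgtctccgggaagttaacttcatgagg

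The 6 highest peaks of other kinds, all at single promoters, were the following.
K12H4.5 (chrIII:8043934-8044034, signal 1271): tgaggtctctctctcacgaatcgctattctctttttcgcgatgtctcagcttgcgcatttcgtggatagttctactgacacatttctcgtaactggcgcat
rpl-3 (chrIII:3867540-3867640, signal 745): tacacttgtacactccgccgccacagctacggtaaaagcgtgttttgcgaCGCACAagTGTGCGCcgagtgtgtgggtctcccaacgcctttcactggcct
M01F1.9 (chrIII:3499985-3500085, signal 701): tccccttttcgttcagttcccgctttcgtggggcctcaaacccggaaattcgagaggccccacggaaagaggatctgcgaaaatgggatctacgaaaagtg
W01D2.3 (chrII:14804592-14804692, signal 595): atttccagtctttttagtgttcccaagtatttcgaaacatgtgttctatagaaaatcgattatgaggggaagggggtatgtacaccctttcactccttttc
cbp-1 (chrIII:9765567-9765667, signal 584): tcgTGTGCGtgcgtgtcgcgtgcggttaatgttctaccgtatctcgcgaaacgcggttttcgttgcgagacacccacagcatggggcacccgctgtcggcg
W03F8.4 (chrIV:5183823-5183923, signal 477): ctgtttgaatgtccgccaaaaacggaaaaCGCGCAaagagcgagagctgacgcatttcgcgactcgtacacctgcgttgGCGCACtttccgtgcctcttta

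All 6 of the divergent windows and 3 of the 6 others held at least 1 of the 5 words, and the windows of K12H4.5, M01F1.9 and W01D2.3 held none. The words were picked on the same peak windows, so this count and the shares below only describe them. CGCGCA was in 14.5% of the 399 peak windows (58 windows), against 4.99% of the weighted windows not called. GCGCAC was in 14.3% against 4.87%, TGCAAA in 17.8% against 9.35%, TTGCAA in 12.5% against 4.53% and CGCACA in 12.8% against 5.17%. Each of these 5 words was in a larger share of divergent than of single peak windows. For GCGCAC the share was 21.7% of divergent and 11.0% of single windows, and for TTGCAA it was 19.1% of divergent and 10.3% of single windows.

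Signal, the authors' own value per region and comparable within a list only, ran from 190 to 1271 over the 399 promoter peaks, with a median of 226 and quartiles of 203 and 270. A few peaks stood high above a dense lower range, and 31 of the 399 reached 400. By rank, 6 of the promoter peaks were among the 50 highest of all IDR peaks and 15 among the 100 highest. The 70 IDR peaks in promoters within 200 bp of a tRNA, snoRNA or snRNA gene had a median of 342, and the 223 peaks in introns, outside promoters and away from such genes, one of 213. The lowest promoter peaks were those of F32B4.5 (189.65), rpt-1 (189.73), zipt-7.2 (189.81) and the pair T22C1.5 and ctf-8 (189.86). The highest promoter regions of the pooled list that missed the IDR list were those of efl-3 (189.51), dnj-8 (189.49), nduf-11 (189.45) and dlc-1 (189.20), so the list ended within a continuous range of values.

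The highest promoter peak was at K12H4.5, an uncharacterized gene, at chrIII:8043859-8044077. Its signal was 572 in replicate 1 and 698 in replicate 2, and 1271 in the pooled list, with the summit 503 bp upstream of the start and outside annotated coding exons. It was also the 1 promoter peak narrower than the standard width, 219 bp against 444 bp for the other 398. The second was at the divergent pair uncp-18, a syntaxin-binding protein gene by its RefSeq name, and ears-2, for a mitochondrial glutamyl-tRNA synthetase, at chrIV:390297-390740. Its signal was 407 in replicate 1, 393 in replicate 2 and 806 in the pooled list. The starts of uncp-18 and ears-2 were 92 bp apart, the least among the divergent peaks, and the summit stood 41 bp upstream of the first and 51 bp upstream of the second.

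On chromosome X the highest promoter peaks were at T13C5.6 and ftt-2. T13C5.6, a phosphatidic acid phosphatase domain gene, had a signal of 405 in replicate 1, 388 in replicate 2 and 795 in the pooled list, at chrX:6207639-6208082. The gene ftt-2, for a 14-3-3 protein that binds phosphorylated partners, had 337 in replicate 1, 455 in replicate 2 and 782 in the pooled list, 554 bp upstream of the start at chrX:11605751-11606194. Neither had a second gene start in its window, and the replicates differed by more at ftt-2 than at T13C5.6.

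Chromosome III held 8 of the 15 highest promoter peaks, with single and divergent ones among them. The gene rpl-3, for a protein of the large ribosomal subunit, had 353 in replicate 1, 391 in replicate 2 and 745 in the pooled list. M01F1.9, an arrestin domain gene, had 324, 380 and 701 in the same order, with its summit near the upstream edge of the window at -978 bp. The gene cbp-1, for the worm's p300/CBP histone acetyltransferase, had 258, 324 and 584 in that order at -892 bp, and W01D2.3 on chromosome II had 309, 298 and 595 at -333 bp. Among divergent peaks, nmad-1 and hach-1, for a DNA demethylase and a mitochondrial enzyme of valine breakdown, shared a peak of 295 in replicate 1, 321 in replicate 2 and 600 in the pooled list. The pair C16C10.4 and rnf-121, for a SAP18 homologue and a ubiquitin ligase, shared one of 265, 324 and 595 in that order. The ataxin-2 gene atx-2 and ecps-1 shared one of 275, 305 and 582, and the taspase gene tasp-1 and K01G5.10 one of 249, 318 and 566. The other divergent peaks among the 15 highest were rpl-15 with K11H12.8 (563), spe-48 with spgt-1 (561) and pcrg-1 with E04F6.6 (544).

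The ratio between the replicates varied from peak to peak. Of the 399 promoter peaks, 378 had a summit within 100 bp in both relaxed replicate lists of 30000 regions. Over these 378, signal ran from 49.9 to 572 in replicate 1 (median 110) and from 55.6 to 698 in replicate 2 (median 118), and the ratio of replicate 2 to replicate 1 had a median of 1.08 with a range of 0.501 to 2.57. The quartiles of the ratio were 0.932 and 1.27. Over all IDR peaks found in both lists it ran from 0.463 to 2.99 (median 1.12). Scale differs between lists, so the ratio is a description only. Pearson's r of log2 signal across these peaks was 0.718 and Spearman's rho 0.457 (n = 378 peaks), given as a description since the peaks share both libraries and were chosen for high values in them. Among as many of the highest regions of each replicate list as the IDR list holds, 213 of 399 promoter peaks were found in both (53.4%, 48.4 to 58.4), against 55.9% of all IDR peaks, 167 in 1 replicate only and 19 in neither. The share found in both was 63.5% of the divergent (54.0 to 72.3) and 49.3% of the single promoter peaks (43.2 to 55.4). It was 88.6% of the 70 promoter peaks near small RNA genes and 40.4% of the 223 intronic peaks.

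**Figure D1:**
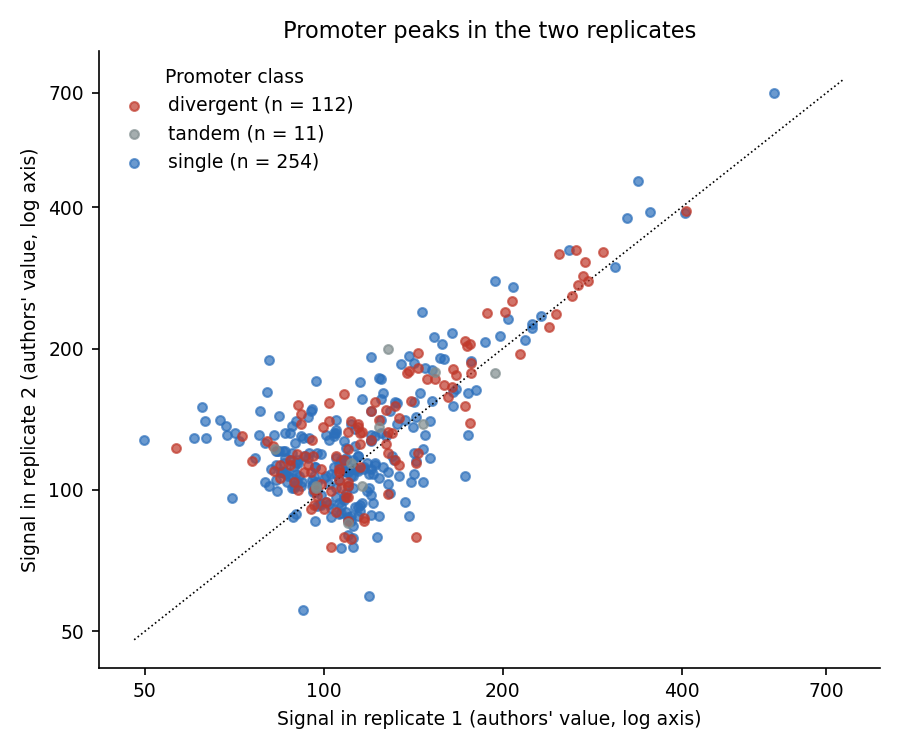
Signal of each promoter peak in replicate 1 (x axis) and replicate 2 (y axis), both log axes in the authors' units, for the peaks with a summit within 100 bp in both replicate lists; points are peaks, coloured by promoter class (112 divergent, 11 tandem, 254 single; the 1 peak of another arrangement is not drawn), and the dotted line marks equal values. K12H4.5 stands alone at the top right with 572 and 698, and most peaks lie between 50 and 200 in both replicates.

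A larger share of divergent than of single promoter regions was called. The background was the pooled list, in which 7197 of 30000 regions met the same promoter and small RNA rule and 399 of them were IDR peaks (5.54%, 5.03 to 6.10); over the whole pooled list it was 4.19%. Of 960 divergent promoter regions 115 were IDR peaks (12.0%, 9.99 to 14.2), against 272 of 6093 single promoter regions (4.46%, 3.96 to 5.01). Tandem regions had 11 of 135 (8.15%, 4.14 to 14.1). The intervals of divergent and single regions did not overlap. Taking an equal number of the highest regions of 1 replicate at a time, the shares were 12.7% of divergent and 4.53% of single regions in replicate 1, and 10.9% of divergent and 4.44% of single regions in replicate 2.

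Among the called peaks, divergent ones had the higher median signal. The IDR list held the highest regions of the pooled list by this signal, so this is no observation separate from the share called. Their median was 242 with quartiles of 208 and 318, against a median of 222 with quartiles of 200 and 252 for single peaks, so the lower quartiles were close and the upper ones apart. Divergent peaks made up 11 of the 20 highest promoter peaks, 39 of the 100 highest and 22 of the 100 lowest. In the IDR list their median rank was 520, against 694 for single peaks. The highest value of all was nevertheless a single peak, at K12H4.5.

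Summits stood mostly upstream of the start and close to it. Of the 399 summits, 355 were upstream of the nearest start (89.0%, 85.5 to 91.9), against 79.3% of the 6798 promoter regions that were not IDR peaks. The median position was -193 bp with quartiles of -401 and -73.0 bp, against -285 bp with quartiles of -614 and -36.0 bp in regions not called. The 200 bp just upstream held 158 summits (39.6%, 34.8 to 44.6), against 21.9% of regions not called. The nearest summits stood at 0 bp for K02F2.5, at 3 bp for pir-2 and for cel-1 of the cel-1 and npp-14 pair, and at -3 bp for tre-1 of the tre-1 and dad-1 pair; the farthest were flh-3 (-994 bp), C10G11.6 (-993 bp) and M01F1.9. By annotation 314 summits lay outside protein-coding genes (78.7%), 29 in coding sequence, 32 in untranslated exons and 24 in introns. The deposited summit was the centre of the region for peaks of the standard width, so positions carry no finer detail than the region's placement.

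**Figure D2:**
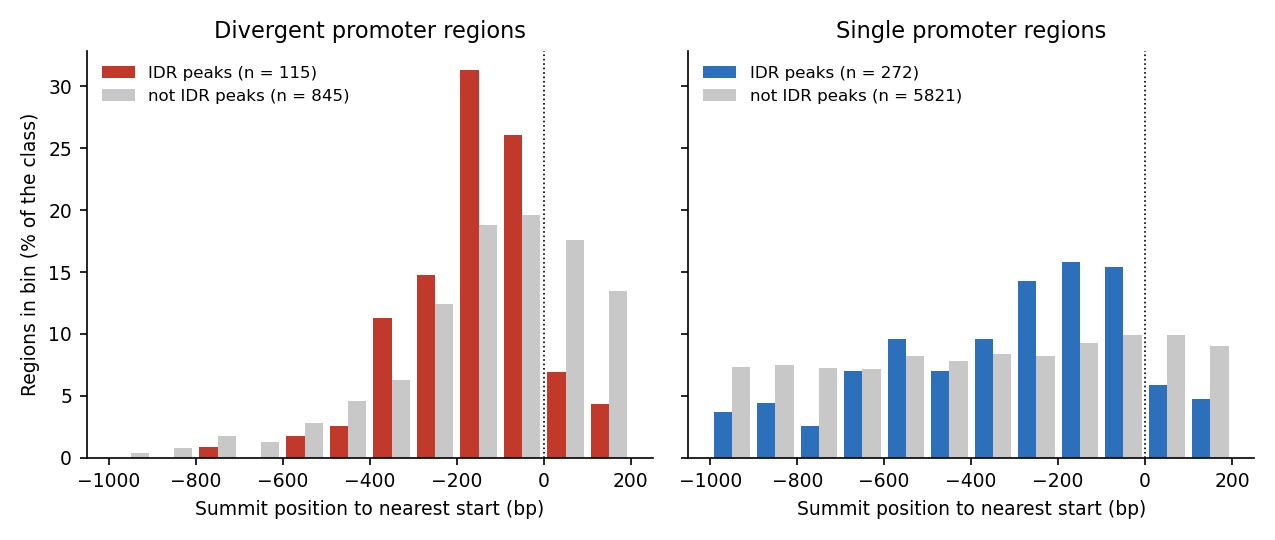
Position of the summit relative to the nearest protein-coding start in bins of 100 bp (x axis, negative upstream), as percent of the class (y axis), for divergent regions on the left and single regions on the right; coloured bars are IDR peaks, grey bars are promoter regions of the pooled list that are not IDR peaks, and the dotted line marks the start. Divergent peaks gather in the last 200 bp upstream, where 57.4% of them lie, and single peaks spread over the whole window.

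Divergent and single peaks differed in position. Divergent summits had a median of -138 bp to the nearer start (quartiles -226 and -56.5 bp), against -258 bp for single summits (-506 and -94.0 bp). Among divergent peaks 66 of 115 (57.4%, 47.8 to 66.6) were in the 200 bp just upstream, against 85 of 272 single peaks (31.2%, 25.8 to 37.1). A divergent summit has at least 2 starts to be near to, and the regions not called showed the same order, with medians of -96.0 bp for divergent and -340 bp for single regions. More than 500 bp upstream lay 3 divergent and 74 single peaks. In the divergent set the 2 starts were a median of 588 bp apart (92.0 to 1714 bp), and 102 of 115 summits stood between them. These 102 summits were nearer to the plus-strand start in 49 cases and stood a median of 168 bp from the nearer and 390 bp from the farther start, or 33.4% of the way into the gap.

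The larger called share of divergent regions was also seen at matched positions. From 200 to 1 bp upstream, 66 of 391 divergent regions were IDR peaks (16.9%, 13.3 to 21.0) and 85 of 1202 single regions (7.07%, 5.69 to 8.67). Between 400 and 200 bp upstream it was 30 of 188 divergent regions (16.0%, 11.0 to 22.0) and 65 of 1030 single regions (6.31%, 4.90 to 7.97). At or downstream of the start the intervals overlapped, with 13 of 276 divergent regions (4.71%, 2.53 to 7.92) and 29 of 1134 single regions (2.56%, 1.72 to 3.65). By the distance between the starts, the share of divergent regions called was 8.13% up to 250 bp, 16.3% from 250 to 500 bp, 10.4% from 500 to 750 bp, 14.0% from 750 to 1000 bp and 8.81% beyond, with no steady trend.

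**Figure D3:**
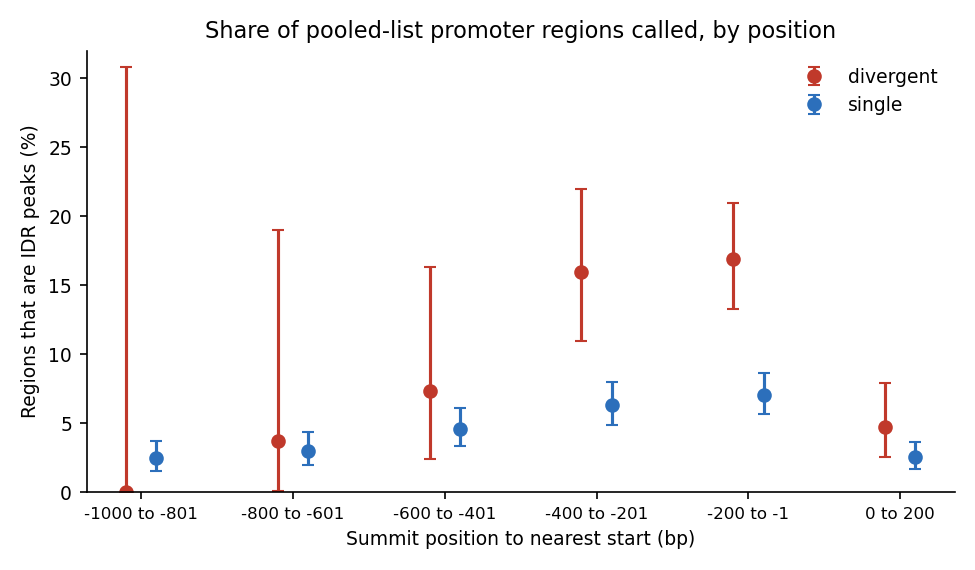
Percent of promoter regions of the pooled list that are IDR peaks (y axis) by the position of the summit to the nearest start (x axis, bins in bp); red points are divergent and blue points single regions, and bars are 95% Clopper-Pearson intervals over regions. The intervals of the classes lie apart in the 2 bins between -400 and 0 bp and overlap elsewhere; the farthest divergent bin holds 0 of 10 regions.

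G and C made up more of the peak windows than of the others. The bases within 50 bp of the summit were 45.1% ± 9.40 G and C in the 399 peaks (SD over windows), against 37.8% ± 9.04 in the 6798 promoter regions not called. Divergent and single peaks were alike in the mean of these windows, with 45.4% ± 9.33 in divergent and 45.0% ± 9.45 in single windows. Within 100 bp of the summit the mean was 41.2% ± 6.79 in divergent and 43.3% ± 8.06 in single windows. By the windows of 50 bp to either side, the share of regions called was 2.29% below 30% G and C, 7.48% from 40 to 50% and 18 of 90 regions were called at 60% or more. Divergent regions had the larger share within each range: 5.90% of divergent and 2.04% of single regions below 40% G and C, 43 of 268 divergent and 109 of 1817 single regions from 40 to 50%, and 29.3% of divergent and 13.7% of single regions from 50% up. What part G and C content has in the calls was not tested.

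Short sequences known from worm promoters and from homeodomain sites were searched in the same windows on both strands. TAATTA, a site that many homeodomains bind, was in 9 of 399 peak windows (2.26%, 1.04 to 4.24), against 4.99% of promoter windows not called and 4.84% of all 7197. From 40 to 50% G and C it was in 1.88% of called and 2.12% of other windows. GAGAGA was in 63 peak windows (15.8%, 12.4 to 19.7), among them that of K12H4.5, against 8.05% of windows not called and 8.48% of all. GGGCGG, known from Sp1 sites, occurred in 32 (8.02%, 5.55 to 11.1), against 2.99% of windows not called and 3.27% of all; it was in 13.0% of divergent and 5.51% of single peak windows. In percentage points, both gaps were smaller in the ranges below 50% G and C and larger at 60% or more. From 40 to 50% GAGAGA was in 14.4% of called and 11.2% of other windows. GGGCGG was in 6.25% of called and 4.55% of other windows there, and from 30 to 40% in 0 called and 1.60% of other windows. From 50 to 60% the gap was smaller for GAGAGA (20.4% against 16.2%) and larger for GGGCGG. At 60% or more, with 18 called windows, GAGAGA was in 22.2% of called and 11.1% of other windows. GGGCGG was in 27.8% of called and 19.4% of other windows in that range. TTTCAG, the end of worm introns, was in 9.02% of peak windows, against 18.7% of windows not called and 18.1% of all. TTTTTT was in 29.3%, against 39.0% and 38.5%. CTGCGTC was in 4.26% against 1.69% and 1.83%, and CACGTG, the E box, in 3.01% against 2.19% and 2.24%. By class, TTTTTT was in 37.4% of divergent and 26.5% of single peak windows, against 38.3% and 39.2% of those not called. GAGAGA was in 11.3% of divergent and 16.9% of single peak windows, against 9.11% and 7.94% of those not called. In the intronic peaks away from small RNA genes GAGAGA was in 13.5% and GGGCGG in 7.17%, so both words were also found outside promoters.

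All 6 chromosomes had promoter peaks, 91 on I, 82 on III, 67 on X, 60 on II, 53 on IV and 46 on V. Chromosome V, which holds 25.0% of the protein-coding genes and many families of chemoreceptors, had 11.5% of the promoter peaks, and chromosome I with 14.4% of the genes had 22.8%. The share of promoter regions called was 7.50% on I (6.08 to 9.12), 6.75% on III (5.41 to 8.32), 6.54% on X (5.11 to 8.24), 4.99% on IV (3.76 to 6.48), 4.58% on II (3.52 to 5.86) and 3.35% on V (2.46 to 4.44), with overlapping intervals among neighbours in this order. Of the 82 promoter peaks on chromosome III, 17.1% ranked among the 200 highest IDR peaks, against 4.35% to 9.43% on the other chromosomes. With each chromosome cut into 3 equal lengths, the middle had 6.16% of its promoter regions called (5.25 to 7.18) and the outer stretches 5.21% (4.60 to 5.89), with overlapping intervals. The middle had the higher share on I, V and X and the lower one on II, III and IV, with overlapping intervals on each chromosome.

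Chromosome X had few divergent peaks. There were 2 divergent peaks among its 67 (2.99%), against 38.5% on I, 23.3% on II, 36.6% on III, 39.6% on IV and 28.3% on V. Divergent regions were also fewer there in the pooled list, with 4.39% of promoter regions on X and 13.5% to 17.1% on the autosomes. Of the 45 divergent regions on X, 2 were called (4.44%, 0.543 to 15.1). Single promoter regions on X were called in 64 of 957 cases (6.69%, 5.19 to 8.46), against 2.66% on V to 5.18% on I. On chromosome I, 35 of 176 divergent regions were called (19.9%, 14.3 to 26.6), against 52 of 1003 single regions (5.18%, 3.90 to 6.74). The intervals of the divergent and single shares lay apart on I, III, IV and V and overlapped on II and X.

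**Figure D4:**
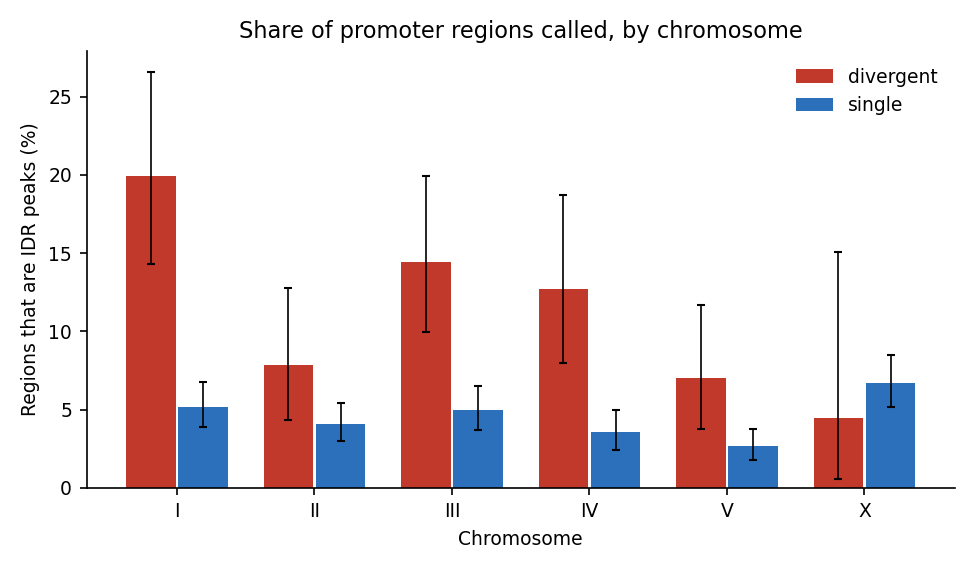
Percent of promoter regions of the pooled list that are IDR peaks (y axis) on each chromosome (x axis), with red bars for divergent and blue bars for single regions and 95% Clopper-Pearson intervals over regions as error bars. Divergent bars are higher on the 5 autosomes, up to 19.9% on I, and X has 4.44% of divergent and 6.69% of single regions.

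The promoter peaks touched 526 protein-coding genes, 115 peaks lying in the windows of 2 genes and 12 in those of 3 or more. These 526 were 7.50% of the 7016 genes with any promoter region of the pooled list, the background for the gene lists below. Genes with a given name had a peak in 364 of 4221 cases (8.62%, 7.79 to 9.51) and genes known by a sequence name in 162 of 2795 (5.80%, 4.96 to 6.73). Of the 526 genes, 122 were in at least 1 of 22 lists built from gene symbols. Such lists miss genes with other symbols, so each count and order below is that of the list as built, and some missed genes are named, chosen after their values were seen. Where a list's gene shares its peak with a divergent or tandem neighbour, the peak cannot be assigned to either gene.

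Ribosomal protein genes had the largest share among the 22 lists. Cytoplasmic ribosomal protein genes had a peak in 20 of 63 cases (31.7%, 20.6 to 44.7), with a median signal of 246 against 226 over all promoter peaks, and the ribosomal protein start was the nearest one in 13 of the 20. After rpl-3 and rpl-15 the highest were rpl-18A (202 in replicate 1, 239 in replicate 2, 443 pooled) and rps-19 (188, 238 and 427 in that order). Of the 20 peaks 13 were divergent. Mitochondrial ribosomal protein genes had 7 of 40 (17.5%, 7.34 to 32.8), with a signal of 192 to 246, and mrpl-1 and mrps-24 shared 1 of them. Translation factors had 3 of 34 (8.82%): eif-3.C (437), iff-2 (326) and the elongation factor gene eef-2 (195); erfa-3, outside the list, had a divergent peak of 457 with math-33. Of the aminoacyl-tRNA synthetase genes ears-2 alone, of 13, had one.

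The intervals of 5 lists of nuclear and cell cycle genes also lay above the background. Histone genes had 8 of 29 (27.6%, 12.7 to 47.2) on 7 peaks, since his-37 had 2 (272 and 203), led by the divergent his-60 and his-59 (173 in replicate 1, 208 in replicate 2, 375 pooled), whose summit lay 194 bp inside his-60, then his-31 (319) and the pair his-68 and his-67 (318). Summits in annotated coding sequence were those at his-60, his-31, his-24, htz-1 and the lower his-37 peak. Over all promoter peaks 29 of 399 summits lay in coding sequence (7.27%). Nuclear pore and transport genes had 8 of 30 (26.7%, 12.3 to 45.9), led by npp-8 (332) and the importin alpha gene ima-1 (247), although their start was the nearest in 3 of the 8. Chromatin regulators had 13 of 63 (20.6%, 11.5 to 32.7), led by cbp-1, by swsn-3 (446), for a subunit of the SWI/SNF remodeller, and by lin-61 (288) and by lin-54 (270), for the DNA-binding subunit of the DREAM repressor. F39G3.3, a histone H3-K79 methyltransferase gene by its RefSeq name and outside the list, had 443. Cell cycle and replication genes had 12 of 74 (16.2%, 8.67 to 26.6): cdc-48.1 (474), an AAA ATPase gene, lin-35 (410), for the retinoblastoma homologue, the centriole gene sas-5 (346) and the kinetochore gene knl-3 (290) were the highest. Splicing factor genes had 6 of 29 (20.7%, 7.99 to 39.7), all 6 in divergent peaks and with the splicing gene nearest in 2, led by snr-1 (489), lsm-3 (278), prp-19 (244) and rnp-2 (212). The lower bound of 7.99% is close to the background, so this reading and the class of the peaks depend on the list as built. RNA polymerase and general transcription genes had 3 of 45 (6.67%): mdt-9 (278), taf-4 (208) and ints-8 (200).

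For the chaperone, respiratory chain, trafficking, proteasome and germline lists the intervals held the background. Heat shock and chaperone genes had 6 of 31 (19.4%, 7.45 to 37.5): the J-domain gene dnj-29 (471), the mitochondrial hsp-60 (386), hsp-1 (334) and dnj-9 (247) were the highest of the list. Genes with the RefSeq name of heat shock proteins outside it were F44E5.5 and F44E5.4, sharing a divergent peak of 317, and Y22D7AL.10, in the hsp-60 peak, and the lower bound of 7.45% is close enough to the background to depend on such genes. Respiratory chain genes had 7 of 45 (15.6%, 6.49 to 29.5), led by ndua-2 (471), in the dnj-29 peak, cox-5B (414), cox-5A (315) and cyc-1 (291), for subunits of complexes I, IV and III. Outside this list, T27E9.2 (262) and F29B9.11 (248) had RefSeq names of cytochrome b-c1 and cytochrome c oxidase subunits. Both were in divergent peaks, and the lower bound of 6.49% may also depend on such genes. Membrane trafficking genes had 11 of 80 (13.8%, 7.07 to 23.3): snx-13 (489), which shares its peak with snr-1, vps-51 (410), which shares one with lin-35, sec-61.G (279) and vps-22 (257) led. The proteasome had 1 of 19, the ATPase gene rpt-1, just inside the threshold. Germline and germ granule genes had 2 of 14 (14.3%, 1.78 to 42.8), the muscle-excess gene mex-1 (251) and the P granule gene pgl-1 (197). The mex-1 summit was at -886 bp, nearer to the starts of W03C9.5 and rab-7. That of pgl-1 was at -855 bp, in annotated coding sequence.

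For the homeobox, nuclear hormone receptor, collagen and neuropeptide lists the intervals also held the background, and for the chemoreceptor, immunity and ion channel lists they lay below it. Homeobox genes, to which ceh-83 itself belongs, had 2 of 36 (5.56%, 0.680 to 18.7), ceh-38 (212) of the ONECUT family and nob-1 (197), a Hox gene of the posterior; dve-1, a homeobox gene outside the list, had a peak of 222 (91.4 in replicate 1 and 130 in replicate 2). Nuclear hormone receptor genes had 2 of 64 (3.12%, 0.381 to 10.8): nhr-49 (231), a regulator of fat metabolism, and nhr-228 (191). Chemoreceptor genes had 6 of 261 (2.30%, 0.848 to 4.94), led by sre-1 (350), sri-5 (315), srh-16 (248) and sru-24 (211); the summit at sre-1 was at -928 bp of its start and at -66 bp of that of B0495.9. Collagen and cuticle genes had 2 of 63 (3.17%), col-143 (198) and col-63 (196). Innate immunity and detoxification genes had 1 of 133 (0.752%, 0.0190 to 4.12), cyp-31A3 (200), and neuropeptide genes 1 of 45 (2.22%), nlp-12 (191). The summit at nlp-12 was at -944 bp of its start, in a tandem peak nearer to the start of emr-1. Ion channel and neurotransmitter receptor genes had 0 of 49, for which the exact interval reaches 7.25%. These readings of intervals against the 7.50% of all genes make no allowance for the number of lists, for shared peaks or for genes the lists miss.

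**Figure D5:**
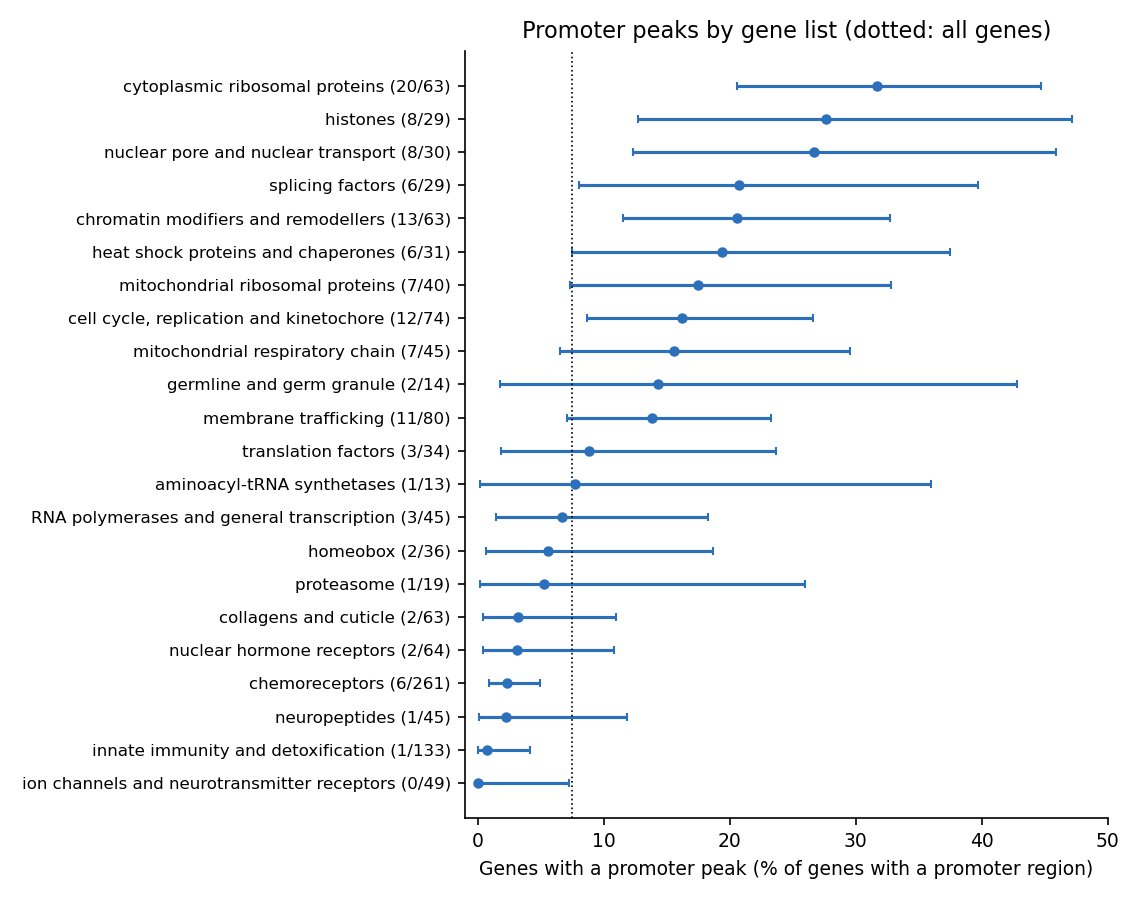
Percent of genes with a promoter peak (x axis) among the genes of each list that have a promoter region in the pooled list (y axis, with counts), with 95% Clopper-Pearson intervals over genes; the dotted line marks 7.50%, the share over all 7016 such genes. Ribosomal protein genes stand at the top with 31.7%, and ion channel, immunity, neuropeptide and chemoreceptor genes at the bottom.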

How the data were processed

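The deposited files were narrowPeak lists on ce11: per the deposited file listing, 1 relaxed list per replicate against a control, 1 for the pooled replicates, and the IDR list derived from these. No source used here names the aligner, the caller or the IDR threshold. Signal in the deposited lists is the authors' value per region, and its scale differs between lists. The score in the deposited q-value column is mostly below 0 in the relaxed lists and entered no result. The 1258 IDR peaks were the 1258 highest regions of the pooled list.

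Gene starts came from Ensembl release 115 (19973 protein-coding genes, of which 19962 took a RefSeq symbol), along with 612 tRNA, 346 snoRNA and 129 snRNA genes. Python 3.11.15 with pandas 2.3.3 and scipy 1.17.1 computed the counts and exact intervals, and the rule was tested on simulated data. Named are the 15 highest peaks, the highest in the divergent class and up to 4 in each list, and those at the threshold or nearest and farthest from a start. The peaks described and the gene lists were chosen with earlier results of these data known. Alternatives were another window, other starts, another margin, fewer peaks, region midpoints, other distances for shared summits, wider sequence windows and each replicate alone.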

Additional observations from a re-analysis of the deposited data

How the results depend on the processing

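The share of divergent regions called exceeded that of single regions under all 7 alternatives that could change it. When the window reached 500 bp upstream and 100 bp downstream, there were 73 divergent peaks (23.9% of the promoter peaks), the median position was -163 bp, and 7.17% of all, 15.8% of divergent and 6.15% of single regions were called. With the IDR peaks of higher signal alone, which by construction are fewer, there were 189 promoter peaks, 67 of them divergent (35.4%), with 2.63% of all, 6.98% of divergent and 1.92% of single regions called and median signals of 288 in divergent and 267 in single peaks. With other non-coding RNA genes set aside as well, 12.2% of the promoter peaks were on X, against 16.8%. Using 1 replicate at a time, the number of promoter peaks was 383 to 409, that of divergent ones 102 to 121 (26.6% to 29.6%), and the median position -217 to -203 bp; signal medians were not compared there because the lists differ in scale. Region midpoints could change nothing, since summits are region centres at the standard width, and are not counted here. The number of promoter peaks high in both replicates was 175 with summits within 50 bp and 227 within 250 bp. With windows of 100 bp to either side, TAATTA was in 6.52%, GAGAGA in 27.1% and GGGCGG in 14.0% of peak windows, against 9.55%, 15.4% and 5.50% of windows not called in the same order. In all, 64 of 83 alternative values stayed within the interval or spread of the reported one or, for counts, within 1.5 times it. No paired analysis was possible because there was 1 group. The unknown depth and the lack of an untagged library limit all values.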

Other observations

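On chromosome X the promoter peaks often stood beside genes of the broad class that Ensembl labels ncRNA, which is not among the tRNA, snoRNA and snRNA classes set aside here. Of the 67 promoter peaks on X, 25 had their summit within 200 bp of such a gene (37.3%, with an interval that begins at 25.8%), against 10.4% of the X promoter regions not called (8.58 to 12.6). On II it was 9 of 60 peaks, with an interval of 7.10 to 26.6, against 4.80% of regions not called (3.69 to 6.14). On the other autosomes it was 6 of 91 peaks on I (6.59%, against 3.92% of regions not called) and 5 of 82 on III (6.10%, against 4.06%). It was 4 of 53 on IV (7.55%, against 4.66%) and 5 of 46 on V (10.9%, against 5.57%). The intervals of peaks and of regions not called lay apart on II and X and overlapped on I, III, IV and V. Over the whole set it was 54 of 399 (13.5%, 10.3 to 17.3), against 5.46% of regions not called. The peaks at T13C5.6 and ftt-2 were among them, and the highest signal of the 54 was the 795 of T13C5.6. Near microRNA genes there was 1 promoter peak (0.251%, against 0.191% of regions not called), near piRNA genes 3 (0.752%, against 1.27%), and near pseudogenes 0 of 399 (against 1.54%).

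Some promoters carried 2 overlapping peaks. There were 12 such pairs, with summits 199 to 365 bp apart, and the higher peak of the pair had a signal of 218 to 782. At ftt-2 the pair had 782 and 420, at W01D2.3 595 and 246, at cbp-1 584 and 241, at lin-35 410 and 241, and at spat-3, for a RING protein of Polycomb type, 362 and 238. In all, 13 genes had 2 or more promoter peaks in their window, so peaks are not all separate sites. The words of 6 letters that were scarcer in peak windows than in weighted windows not called included CTGAAA, the reverse complement of the intron-end sequence TTTCAG, in 9.02% against 14.0%, and GAAGAA in 8.02% against 13.0%.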
